A study of Bos taurus with 8 samples.

Results

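VEGFA and 9 other genes of the response to low oxygen (ADM, HIF1A, EPAS1, EGLN1, EGLN3, BNIP3, NDRG1, P4HA1 and KDM3A) were followed in conceptuses of cattle, the elongating embryo with its membranes before it attaches to the uterus. The genes were chosen by name, and 10 of 10 were found among the 15267 genes of the deposited table. RNA was sequenced from 8 samples of filamentous Bos taurus conceptuses at day 15, each labelled as part of a conceptus cut in 2 pieces. In 4 samples (titles FLI20, FLI3M, FLI4M and FLI50) fibroblast growth factor 2 (FGF2), leukemia inhibitory factor (LIF) and insulin-like growth factor 1 (IGF1) had been added, and these are called FLI. The other 4 (CON10, CON20, CON3M and CON4M) were controls. Per the labels the embryos of both groups had developed in vitro, and the title of the series concerns survival and elongation after slow-rate freezing. No label says at which step the factors were given, which piece of the conceptus was sequenced, whether samples came from separate animals, or what the end of each title marks. P-values here therefore measure only the spread between these samples, which may in part be technical.

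Cells sense oxygen through enzymes that use it. Prolyl hydroxylases (EGLN1, EGLN2 and EGLN3) mark the hypoxia-inducible factors HIF1A and EPAS1 (HIF2A) when oxygen is present, and VHL then directs the marked factors to destruction. In low oxygen the factors persist, pair with ARNT and switch on target genes. Among these targets are VEGFA, the growth factor of blood vessels, and ADM, a vasodilator peptide, both known in the placenta and uterus. The control of HIF1A and EPAS1 is mostly at the protein, so their mRNA level does not report their activity, whereas target mRNAs are the usual readout of the pathway.

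Libraries held 108851495 to 152570016 reads over the genes of the table, and 1 read was worth 0.00646 to 0.00987 TMM-scaled CPM (reads per library total, scaled by the trimmed mean of M-values, the unit of every level below). Across all 11897 genes tested (a level of at least 1 CPM in at least 4 samples), limma called 0 (0%) between FLI and control at an adjusted p under 0.05, and 338 (2.84%) were under 0.05 before adjustment. With the edgeR quasi-likelihood test on the recovered reads these numbers were 0 (0%) and 376 (3.16%). DESeq2 called 9 genes (0.0756%) and a likelihood ratio test with robust weights 23 (0.193%). The authors' deposited table had 32 of 15267 genes (0.21%) under an adjusted p of 0.05. Summed trophectoderm markers, 11 genes of the outer layer that forms the placenta, stood at 23592 to 57227 CPM in FLI and 19472 to 38441 CPM in controls, so the labelled tissue was present in every library. Of 14 endothelial and blood markers 4 were in the table, with sums of 5.81 to 16.5 CPM in FLI and 4.99 to 7.77 CPM in controls. CD14 had the highest mean of these markers and 11.3 of the 16.5 CPM in FLI20, so the sum does not stand for endothelium alone.

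VEGFA was the member with the smallest p for a difference between FLI and control (log2 difference 0.67), and no member passed the adjusted threshold. With limma on log2(CPM + 0.5), 0 of 10 members were called (Benjamini-Hochberg adjusted p of 0.970 or more), against 0% of all genes tested, and 0 of 10 had an unadjusted p under 0.05. Likewise 0 of 10 were called by the quasi-likelihood test, by DESeq2, by the likelihood ratio test and in the authors' deposited table. The estimate was higher in FLI for 6 members and lower for 4, with a median log2 difference of 0.12 against 0.00 over all tested genes. All 10 members passed the filter on low levels. For each of the 10 the ranges of the groups overlapped, where 1.45% of all tested genes had ranges that did not. The spread among samples was instead large for several members. NDRG1 spanned 28.8-fold from its lowest to its highest sample (with the pseudocount of 0.5), a wider span than 99.1% of tested genes, and EGLN1 only 1.40-fold, wider than 13.3%.

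**Figure D1:**
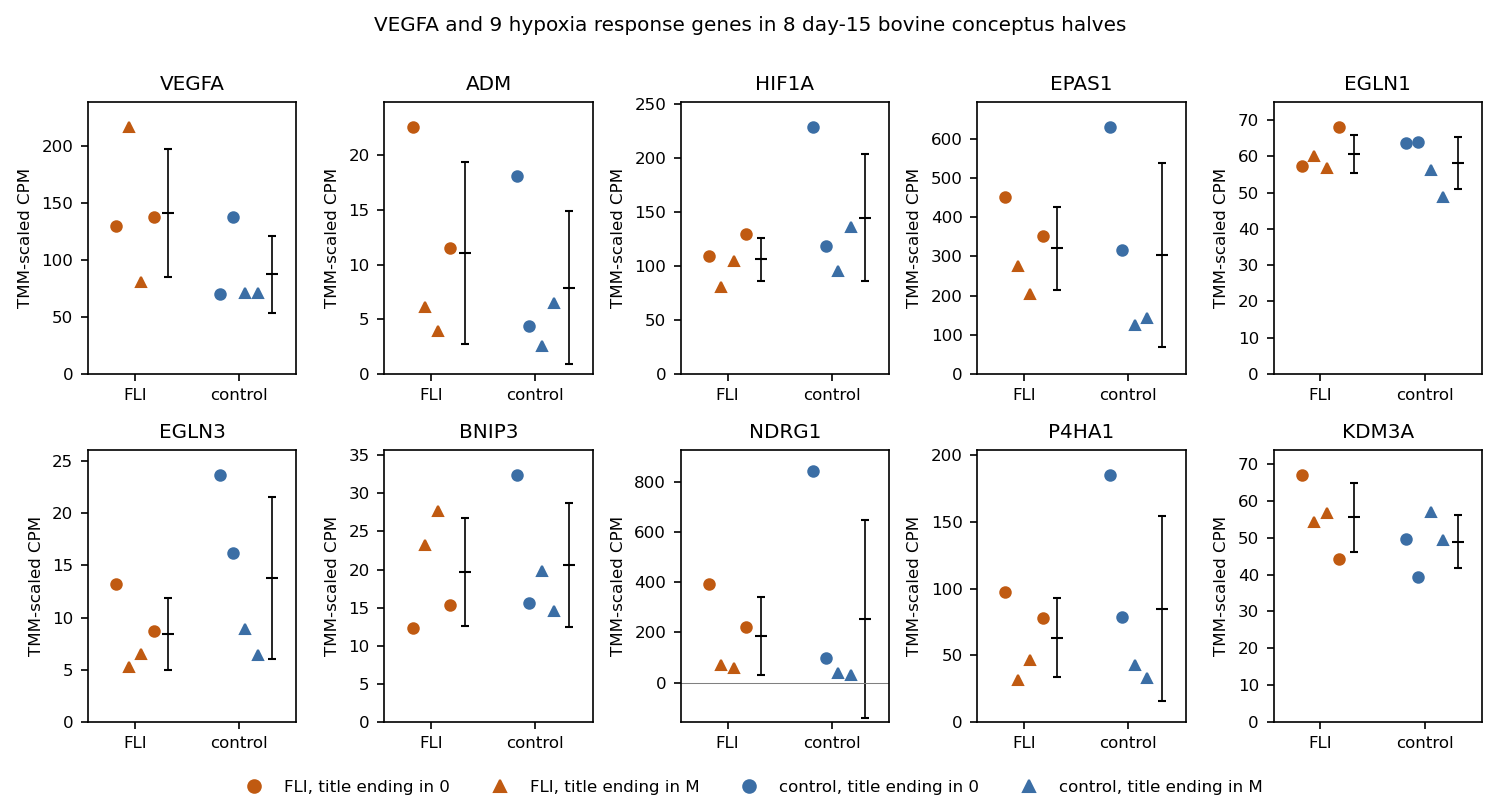
Level of each gene in every sample, as TMM-scaled CPM on a linear axis, with FLI on the left and control on the right of each panel; circles are titles ending in 0, triangles titles ending in M, and the bar beside each group is the mean ± SD of 4 samples. The groups overlap in every panel, the NDRG1 panel reaches 843 CPM in CON10, and the error bar of its control mean runs below 0.

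VEGFA encodes the secreted growth factor that acts on endothelial cells through the receptors KDR and FLT1. The gene (ENSBTAG00000005339, build ARS-UCD1.2) is annotated on chromosome 23 from 17281915 to 17297193, plus strand. It stood at 129.5, 217, 80.9 and 137.3 CPM in FLI20, FLI3M, FLI4M and FLI50, against 69.97, 137.4, 70.7 and 70.8 CPM in CON10, CON20, CON3M and CON4M. The samples fell into 2 sets with nothing between them: FLI20, FLI3M, FLI50 and CON20 were high, and FLI4M and the 3 other controls low. Means were 141 ± 56.3 CPM in FLI and 87.2 ± 33.5 CPM in controls (SD, n = 4 each). The limma log2 difference was 0.67 (SE 0.33, 95% confidence interval -0.08 to 1.42), a value that did not pass (adjusted p = 0.970). In the authors' deposited table the log2 fold change of VEGFA was 0.73, with p = 0.0141 (5.29% of its genes had p under 0.05) and an adjusted p of 0.601. The difference was positive under all 20 alternative settings, at 0.44 to 0.91. It was 0.44 among titles ending in 0 and 0.90 among titles ending in M, and without CON20 it was 0.91 (adjusted p = 0.991 by limma).

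The 4 samples with high VEGFA were also the 4 with the highest trophectoderm marker sums, a match that rested on TKDP1. Those sums were 57227, 52094 and 53155 CPM in FLI20, FLI3M and FLI50 and 38441 CPM in CON20. They were 23592 CPM in FLI4M and 19637, 25443 and 19472 CPM in CON10, CON3M and CON4M. TKDP1, a secreted Kunitz-domain protein of the ruminant trophoblast, made up at most 67.7% of these sums (38724 CPM in FLI20). Its part was smaller in CON10 (3446 of 19637 CPM). Without it, in a sum added after the data had been seen, the 4 highest samples were FLI3M, FLI50, CON20 and CON3M, and CON3M (20819 CPM) stood above FLI20 (18503 CPM). The keratins KRT8 and KRT18 were the larger part of that sum. They had 9100 and 5142 CPM of it in FLI20, and 6804 and 5055 of 13112 CPM in CON4M. That sum thus rests mainly on these keratins and does not stand for the whole list. The other markers of the list followed VEGFA only in part or not at all. PAG2 was highest in FLI3M, FLI50 and FLI20 (2519, 2062 and 1790 CPM), but CON20 (389 CPM) stood below FLI4M (698 CPM). IFNT2 was highest in FLI20, CON20 and FLI50 (1391, 1005 and 547 CPM), but FLI3M (357 CPM) stood below FLI4M (435 CPM). KRT8 was highest in FLI3M, CON20 and FLI50 (12585, 11352 and 11130 CPM), but FLI20 (9100 CPM) stood below CON10 (10694 CPM). CDX2, a factor that specifies trophectoderm, had 27.2, 46.8, 86.3 and 38.3 CPM in FLI20, FLI3M, FLI4M and FLI50, against 6.92, 35.9, 84.1 and 94.9 CPM in CON10, CON20, CON3M and CON4M. TFAP2C, another such factor, was highest in CON4M and CON3M (273 and 225 CPM). In bulk samples fewer cells of a type and less RNA per cell cannot be told apart. The relation of VEGFA with the full sum, 1 of the 40 relations with marker sums described below, did not pass (adjusted exact permutation p = 0.0649). Since the VEGFA levels form separate sets, correlation coefficients of VEGFA with other members and with marker sums are left out, with 1 exception. The exception is the coefficient with the hypoblast sum, given at the end because its sign changed when APOA1 and AFP were left out. It does not stand for the marker sums in general: of the full sums, that of trophectoderm had the largest coefficient with VEGFA. As a description over 8 samples, the tested genes whose pattern was most like VEGFA were SMIM1 (Pearson r 0.97), CCDC88B (0.96), GPAT4 (0.96), CYTH2 (0.95) and GARNL3 (0.95). They were picked as the highest r of all tested genes with a symbol, and their r also includes the 2 sets of VEGFA levels. SMIM1, for example, had 39.8, 73.6, 29.0 and 43.0 CPM in the FLI samples, against 14.9, 40.7, 19.5 and 19.8 CPM in CON10, CON20, CON3M and CON4M. No member was among the 5.

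Of 15 genes of the VEGF family, the angiopoietins and their receptors, 10 were in the table, 5 were tested and 0 were called (3 higher and 2 lower in FLI, median log2 difference 0.31). FLT1, the receptor with high affinity for VEGFA, had 40.7, 31.3, 39.0 and 41.7 CPM in FLI, against 52.1, 21.2, 24.9 and 20.2 CPM in CON10, CON20, CON3M and CON4M. Its log2 difference was 0.47 (adjusted p = 0.970 by limma), and CON10 alone of the controls stood above the FLI samples. KDR, the main signalling receptor of endothelium, had 0.210 to 0.645 CPM in FLI, against 15.9, 7.02, 0.104 and 0.943 CPM in CON10, CON20, CON3M and CON4M, and was too low to be tested. NRP1 and NRP2 are co-receptors of VEGFA. NRP1 had 0.297 to 1.59 CPM in FLI, against 1.02 to 6.14 CPM in controls (log2 difference -0.97, adjusted p = 0.970 by limma). NRP2 had 0.140 to 1.24 CPM in FLI, against 0.463 to 5.91 CPM in controls (log2 difference -1.10, adjusted p = 0.970 by limma). Thus of the VEGFA receptors FLT1 alone was above 20 CPM in every library, and the highest values of KDR, NRP1 and NRP2 were all in CON10. The endothelial receptors TEK and TIE1, which bind or act with the angiopoietins, reached at most 2.28 and 2.45 CPM, again in CON10.

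ADM encodes adrenomedullin, which signals through CALCRL paired with RAMP2. ADM (chromosome 15, 42377564 to 42380500, minus strand) had 22.6, 6.12, 3.95 and 11.5 CPM in FLI20, FLI3M, FLI4M and FLI50, against 18.1, 4.34, 2.58 and 6.50 CPM in CON10, CON20, CON3M and CON4M. It was highest in FLI20 and CON10, and the groups overlapped over most of their range. The log2 difference was 0.52 (SE 0.65, 95% confidence interval -0.97 to 2.004, adjusted p = 0.970 by limma). It was 0.091 without FLI20 and 1.01 without CON10. CALCRL stood at 19.6 CPM in FLI20 and at 0.750 CPM or less elsewhere, with 0 reads in FLI4M, CON3M and CON4M. Those zeros allow up to 0.0206, 0.0224 and 0.0225 CPM by counting error alone. FLI20 was also the library with the highest ADM and with 526 CPM of HAND1, a factor of extraembryonic mesoderm and trophoblast, against 1.88 to 46.3 CPM in the other 7. RAMP2 had 0.746 to 1.91 CPM in FLI, against 1.19 to 2.58 CPM in controls (log2 difference -0.53, adjusted p = 0.970 by limma). PAM, which amidates and so activates the peptide, had 0.859 to 4.06 CPM in FLI, against 2.67 to 8.76 CPM in controls (log2 difference -0.92, adjusted p = 0.970 by limma). Of 11 adrenomedullin genes, 7 were in the table, 4 were tested and 0 were called, with 1 higher and 3 lower in FLI.

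HIF1A and EPAS1 encode the oxygen-regulated subunits of the hypoxia-inducible factors. HIF1A (chromosome 10, 73836334 to 73881299, plus strand) had 109, 80.6, 104.5 and 129 CPM in FLI20, FLI3M, FLI4M and FLI50, against 228, 119, 94.8 and 136 CPM in CON10, CON20, CON3M and CON4M. CON10 lay far above the rest, and the other 7 samples lay between 80.6 and 136 CPM. The log2 difference was -0.39 (SE 0.27, 95% confidence interval -1.0003 to 0.22, adjusted p = 0.970 by limma). It was negative under all 20 alternatives, from -0.56 to -0.14, with the smallest size without CON10. EPAS1 (chromosome 11, 28734999 to 28828070, plus strand) had 452, 274, 204 and 351 CPM in FLI20, FLI3M, FLI4M and FLI50, against 631, 316, 124 and 144 CPM in CON10, CON20, CON3M and CON4M. The controls thus lay on both sides of the FLI samples, 2 at the bottom of the range and CON10 at the top. The log2 difference was 0.33 (SE 0.51, 95% confidence interval -0.83 to 1.49, adjusted p = 0.970 by limma). By title ending it was -0.16 among titles ending in 0 and 0.82 among titles ending in M, where both FLI samples lay above both controls. With 1 library left out it ranged from 0.0041 (without CON3M) to 0.78 (without CON10).

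EGLN1, the main oxygen sensor of this family in most cells, was the steadiest member. It (chromosome 28, 4087440 to 4150379, minus strand) had 57.5, 60.0, 56.7 and 68.1 CPM in FLI20, FLI3M, FLI4M and FLI50, against 63.7, 64.1, 56.3 and 48.7 CPM in CON10, CON20, CON3M and CON4M. Its log2 difference was 0.06 (SE 0.13, 95% confidence interval -0.23 to 0.36, adjusted p = 0.973 by limma). EGLN3, a hydroxylase whose own gene is a HIF target, varied more. It (chromosome 21, 44387137 to 44416154, minus strand) had 13.2, 5.28, 6.53 and 8.69 CPM in FLI20, FLI3M, FLI4M and FLI50, against 23.6, 16.2, 8.91 and 6.38 CPM in CON10, CON20, CON3M and CON4M. CON10 and CON20 were above every FLI sample, while CON3M and CON4M lay among the FLI samples. The log2 difference was -0.59 (SE 0.43, 95% confidence interval -1.57 to 0.39, adjusted p = 0.970 by limma), and it was negative under all 20 alternatives (-0.88 to -0.28, with -0.28 without CON10).

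Of 26 genes of oxygen sensing and HIF assembly, 24 were in the table, 21 were tested and 0 were called, with 10 higher and 11 lower in FLI (median log2 difference -0.04). OS9, a lectin of the endoplasmic reticulum reported to bind HIF1A and the hydroxylases, had the smallest p of this list, at a log2 difference of 0.36 (adjusted p = 0.970 by limma). It stood at 91.9 to 133 CPM in FLI, against 73.7 to 96.3 CPM in controls. The next by p were SIAH2, a ubiquitin ligase for the hydroxylases (log2 difference -0.20), and CITED2, which competes with the factors for their coactivators (0.62). VHL had 4.44 to 7.04 CPM in FLI, against 3.37 to 6.64 CPM in controls, and ARNT 13.3 to 29.8 CPM in FLI, against 13.2 to 20.6 CPM in controls. EGLN2 had 45.8 to 82.5 CPM in FLI, against 43.1 to 54.2 CPM in controls. The log2 differences of VHL, ARNT and EGLN2 were 0.15, 0.06 and 0.14, each within its SE of 0.24, 0.27 and 0.20.

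NDRG1, a stress-induced cytoplasmic protein known to be induced by low oxygen in cultured human trophoblast, spanned the widest range. It (chromosome 14, 8073208 to 8129604, plus strand) had 393, 70.7, 58.3 and 221 CPM in FLI20, FLI3M, FLI4M and FLI50, against 843, 99.2, 37.8 and 28.7 CPM in CON10, CON20, CON3M and CON4M. The single highest and the 2 lowest samples were all controls. The mean was lower in FLI (186 ± 157 CPM, against 252 ± 395 CPM in controls, SD, n = 4 each) while the median was higher (146 CPM in FLI, against 68.5 CPM in controls). Accordingly the sign of the estimate depended on the test: the log2 difference was 0.49 with limma (SE 1.08, 95% confidence interval -1.98 to 2.95, adjusted p = 0.973), -0.44 with the quasi-likelihood test and -0.49 with DESeq2. The authors' deposited table gave NDRG1 a log2 fold change of 1.08 (p = 0.0716, adjusted p = 0.99996). Without CON10 the limma estimate was 1.52. It was 0.02 among titles ending in 0 and 0.95 among titles ending in M, where both FLI samples again lay above both controls.

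P4HA1, a catalytic subunit of the collagen prolyl hydroxylase, spanned 5.76-fold. It (chromosome 28, 29067217 to 29167290, minus strand) had 97.2, 31.8, 46.2 and 77.7 CPM in FLI20, FLI3M, FLI4M and FLI50, against 185, 79.1, 42.8 and 33.0 CPM in CON10, CON20, CON3M and CON4M. Its log2 difference was -0.22 (SE 0.56, 95% confidence interval -1.50 to 1.05, adjusted p = 0.975 by limma). A gene on the other strand, ENSBTAG00000055209, overlaps P4HA1 but shares 0 exon bases with it and reached at most 0.577 CPM. BNIP3, a mitochondrial protein of mitophagy and cell death, spanned 2.55-fold. It (chromosome 26, 51221616 to 51226873, minus strand) had 12.4, 23.3, 27.7 and 15.4 CPM in FLI20, FLI3M, FLI4M and FLI50, against 32.4, 15.6, 19.8 and 14.6 CPM in CON10, CON20, CON3M and CON4M. The log2 difference was -0.06 (SE 0.32, 95% confidence interval -0.80 to 0.68, adjusted p = 0.986 by limma). Among titles ending in 0 both FLI samples lay below both controls (log2 difference -0.69), and among titles ending in M both lay above (0.57). KDM3A, a histone demethylase of H3K9 induced by HIF1A, spanned 1.69-fold, the least after EGLN1. It (chromosome 11, 48378513 to 48434868, minus strand) had 67.0, 54.3, 56.6 and 44.2 CPM in FLI20, FLI3M, FLI4M and FLI50, against 49.8, 39.4, 56.9 and 49.3 CPM in CON10, CON20, CON3M and CON4M. Its log2 difference was 0.18 (SE 0.17, 95% confidence interval -0.20 to 0.56, adjusted p = 0.970 by limma).

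Per kilobase of annotated exon and averaged over 8 samples, NDRG1 had the highest level of the 10 (67.1 CPM per kb), followed by EPAS1 (55.1), VEGFA (39.7), BNIP3 (35.3), HIF1A (31.0), P4HA1 (22.0), EGLN1 (15.3), KDM3A (10.9), EGLN3 (5.47) and ADM (4.24), all in CPM per kb. The order held in every sample only between EGLN1 and KDM3A, and in 7 of 8 between HIF1A and P4HA1 and between KDM3A and EGLN3. NDRG1 was above EPAS1 in only 3 of 8 samples, VEGFA above BNIP3 in 4, BNIP3 above HIF1A in 4 and P4HA1 above EGLN1 in 4, so these neighbours did not differ beyond their spread. EPAS1 was above VEGFA in 6 of 8 samples and EGLN3 above ADM in 5. The table annotates only 570 exon bases for BNIP3, so its level per kb rests on a short gene model.

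Other targets of the factors were taken from a list of 57 genes. Of these, 52 were in the table, 45 were tested and 0 were called, with 31 higher and 14 lower in FLI (median log2 difference 0.15). LDHA, the lactate dehydrogenase subunit of glycolysis, had the smallest p of this list (log2 difference 0.54, SE 0.15, adjusted p = 0.970 by limma). It stood at 376, 428, 507 and 447 CPM in FLI20, FLI3M, FLI4M and FLI50, against 290, 274, 372 and 273 CPM in CON10, CON20, CON3M and CON4M. All 4 FLI samples were above all 4 controls, a pattern that 0.841% of tested genes showed in this direction. HMOX1, the heme oxygenase, was next (log2 difference 1.48, adjusted p = 0.970 by limma), with 214, 34.0, 28.7 and 85.5 CPM in the FLI samples and 17.5 to 35.1 CPM in controls. ALDOC, an aldolase, had a log2 difference of 0.60 (adjusted p = 0.970 by limma), and LDHA and HMOX1 were the 2 genes of this list under 0.05 before adjustment. Of 19 paralogs of the members, 15 were in the table, 11 were tested and 0 were called. The 3 of smallest p among them were VEGFB (log2 difference 0.31), P4HA2 (-0.37) and NDRG3 (-0.21), each with an adjusted p of 0.970 by limma.

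The largest differences among the members lay between samples whose titles end in different characters, a comparison added after the data had been seen. Samples with titles ending in 0 (FLI20, FLI50, CON10, CON20) had 438 ± 142 CPM of EPAS1, and those ending in M (FLI3M, FLI4M, CON3M, CON4M) 187 ± 67.6 CPM (SD, n = 4 each). With treatment as a further term in limma, the log2 difference of titles ending in 0 minus titles ending in M was 1.24 for EPAS1 (SE 0.29, adjusted p = 0.0922). For NDRG1 it was 2.65 (SE 0.61, adjusted p = 0.0922 by limma), with means of 389 ± 326 CPM for titles ending in 0 and 48.9 ± 19.1 CPM for titles ending in M. P4HA1 differed by 1.42 (SE 0.28, adjusted p = 0.0905), at 109.8 ± 51.1 CPM for titles ending in 0 and 38.5 ± 7.16 CPM for titles ending in M. All 4 samples ending in 0 were above all 4 ending in M for these 3 genes, as for 8.99% of tested genes, while 9.47% lay the other way round. EGLN3 differed by 1.07 (SE 0.23, adjusted p = 0.0922 by limma) and ADM by 1.33 (SE 0.49, adjusted p = 0.161 by limma), with overlap. HIF1A (0.45), VEGFA (0.24), EGLN1 (0.19), KDM3A (-0.14) and BNIP3 (-0.23) had smaller differences.

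By the adjusted threshold 0 of 10 members were called in this comparison, where limma called 1 of 11897 genes (0.00841%) and the quasi-likelihood test 0 (0%). At an unadjusted p under 0.05, 5 members were higher in titles ending in 0 and 0 lower, against 13.2% of tested genes higher and 24% in either direction by limma (23.4% by the quasi-likelihood test). The median member difference was 0.76, against -0.04 over all tested genes. Hypoblast markers lay the same way: 8 of 9 tested were higher in titles ending in 0, 7 of them at an unadjusted p under 0.05, with a median log2 difference of 1.07 (the part of these cells in the members' differences was not tested). When 1 sample was left out at a time, the adjusted p of NDRG1 ran from 0.0401 to 0.281 by limma. It was under the threshold only without CON10, the sample of highest NDRG1 (log2 difference 1.94). The number of all tested genes that passed in that fit is not given. The value therefore cannot be set against a share and is not read as a result about NDRG1. Of the other HIF targets, 14 of 45 were higher and 7 lower at an unadjusted p under 0.05. HK1, the hexokinase, differed by 1.39 and SLC2A3, a glucose transporter, by 1.56, both with every sample ending in 0 above every sample ending in M. FAM162A, a mitochondrial target, lay the other way (-0.67). Within title endings the FLI minus control difference of the remaining members, for 0 and then M, was 0.81 and 0.22 for ADM, -0.47 and -0.30 for HIF1A, -0.03 and 0.16 for EGLN1, -0.84 and -0.34 for EGLN3, -0.48 and 0.03 for P4HA1, and 0.29 and 0.07 for KDM3A, each on the log2 scale with 0 members called. What the last character of a title marks is not given by the labels, so its cause was not tested.

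**Figure D2:**
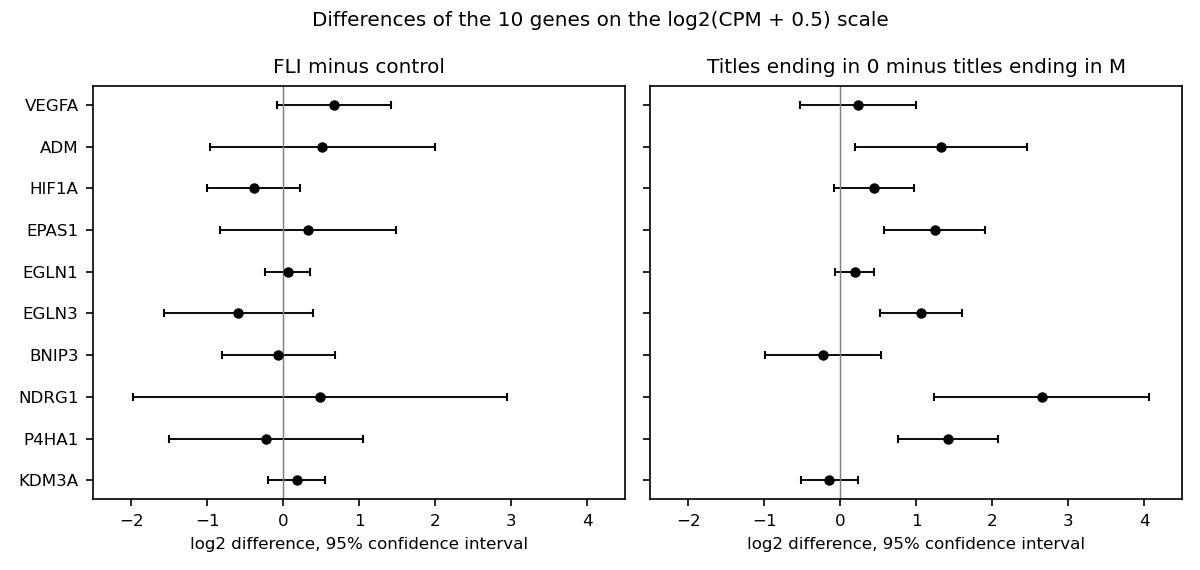
Log2 difference of each gene with its 95% confidence interval from limma on log2(CPM + 0.5), FLI minus control on the left and titles ending in 0 minus titles ending in M on the right. On the left every interval crosses 0; on the right those of ADM, EPAS1, EGLN3, NDRG1 and P4HA1 lie above 0, before any adjustment for the number of genes.

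Several members varied together across samples, which was tested over all 45 pairs by exact two-sided permutation of 8 samples on log2(CPM + 0.5). That permutation treats the 8 samples as exchangeable, though EPAS1, NDRG1 and P4HA1 were each fully separated by title ending. Its p-values therefore include that split. After Benjamini-Hochberg adjustment 3 pairs passed by Pearson r, and by Spearman rho only EPAS1 with NDRG1 did (adjusted exact permutation p = 0.0179). EPAS1 and NDRG1 had Pearson r = 0.956 and Spearman rho = 0.976 (exact permutation p = 0.000273 for r, adjusted p = 0.0123). Without CON3M and CON10, the samples farthest from the median EPAS1 level, r was 0.954, and among deviations from the means by title ending it was 0.856. NDRG1 and P4HA1 had r = 0.927 and rho = 0.833 (adjusted exact permutation p = 0.0216 for r and 0.196 for rho). Their r was 0.778 without the 2 farthest samples and 0.738 within title endings. EGLN3 and P4HA1 had r = 0.925 and rho = 0.905 (adjusted exact permutation p = 0.0216 for r and 0.103 for rho). Their r was 0.875 without the 2 farthest samples and 0.773 within title endings. The 3 pairs involve 4 genes, the factor EPAS1, the oxygen sensor EGLN3 and the targets NDRG1 and P4HA1.

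**Figure D3:**
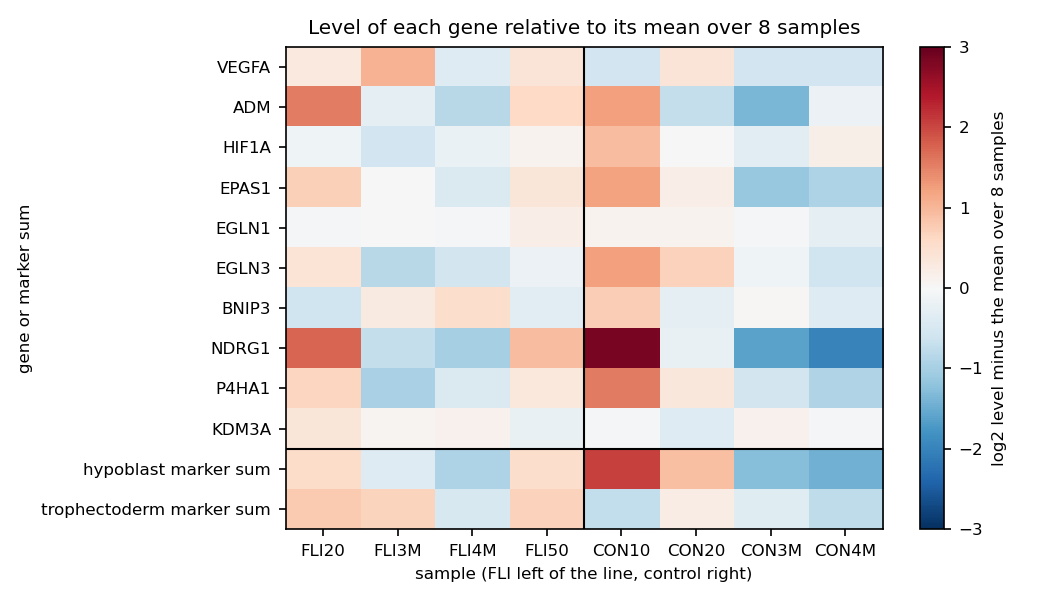
Log2 level of each gene, and of the summed hypoblast and trophectoderm markers, minus its own mean over 8 samples (colour scale from -3 to 3), with FLI samples left of the line and controls right. CON10 is the highest sample for 6 of the 10 genes and for the hypoblast markers, and the 4 samples with VEGFA above its mean are the 4 with the trophectoderm sum above its mean, a sum of which TKDP1 is at most 67.7%.

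The same genes also moved with markers of the hypoblast, the layer of primitive endoderm that lines the conceptus and forms the yolk sac. Of 11 hypoblast markers 10 were in the table, and their sum was 2384, 1245, 855 and 2323 CPM in FLI20, FLI3M, FLI4M and FLI50, against 6653, 3017, 664 and 598 CPM in CON10, CON20, CON3M and CON4M. APOA1, an apolipoprotein, made up 73.1 to 92.9% of that sum. No marker of the list was near 0 in all libraries, but AFP was present only in CON10 and CON20 (4.76 and 10.6 CPM). It had at most 0.0157 CPM in every other library. Marker sums of 4 layers (trophectoderm, epiblast, hypoblast and mesoderm) were set against the 10 members, 40 relations in all, of which 6 passed by r. The hypoblast and mesoderm sums were each fully separated by title ending, as were EPAS1, NDRG1 and P4HA1. The permutation p-values of these relations therefore also include that split, and the coefficients within title endings were not tested. The hypoblast sum had r = 0.947 and rho = 0.905 with EPAS1 (adjusted exact permutation p = 0.0179 for r and 0.0456 for rho), 0.888 without CON10 and CON4M and 0.814 within title endings. With NDRG1 it had r = 0.917 and rho = 0.929 (adjusted exact permutation p = 0.0248 for r and 0.0298 for rho). For NDRG1 r was 0.787 without those samples and 0.694 within title endings. With P4HA1 the sum had r = 0.919 and rho = 0.833 (adjusted exact permutation p = 0.0324 for r and 0.103 for rho, which did not pass). For P4HA1 r was 0.794 without those samples and 0.638 within title endings. EGLN3 did not pass (r = 0.846, adjusted exact permutation p = 0.0529), with 0.666 without those samples and 0.489 within title endings. Relations that did not pass also reached large values within title endings. There r was 0.882 for the hypoblast sum with BNIP3 (0.166 over all 8 samples) and -0.900 for the trophectoderm sum with HIF1A. The values within title endings therefore do not single out the genes named here. When APOA1 was left out of the sum, together with AFP, which was too low to be tested, r was 0.7995 with EPAS1. It was then 0.776 with NDRG1, 0.892 with P4HA1 and 0.873 with EGLN3. With the mean log2 level of the 9 tested markers in place of the sum, r was 0.841, 0.789, 0.878 and 0.860 with the same 4 genes.

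The mesoderm sum gave the other 3 relations that passed by r, with ADM (r = 0.880), NDRG1 (0.879) and EPAS1 (0.855), at adjusted exact permutation p = 0.0347, 0.0347 and 0.0423. For rho the adjusted exact permutation p was 0.103 with ADM, which did not pass, 0.0228 with NDRG1 and 0.0159 with EPAS1. Within title endings r was 0.778 with ADM, 0.576 with NDRG1 and 0.497 with EPAS1. It was 0.912 there with KDM3A, whose relation did not pass (r = 0.168 over all 8 samples). Mesoderm markers summed to 533, 22.3, 17.1 and 71.5 CPM in FLI20, FLI3M, FLI4M and FLI50, against 147, 59.6, 12.6 and 16.4 CPM in CON10, CON20, CON3M and CON4M. HAND1 took at most 98.8% of that sum, in FLI20, against 24.4 of 147 CPM in CON10 and 1.88 of 12.6 CPM in CON3M. Without HAND1, in a sum added after the data had been seen, FLI20 fell from the highest sample to the lowest (6.66 CPM). The highest were then CON10 (122 CPM), CON20 (28.6 CPM) and FLI50 (25.1 CPM). All relations given here are with the full sum, and how far they rest on HAND1 was not tested. FLI20 was also the sample of highest ADM (22.6 CPM). The relation with ADM therefore cannot be read as one with the mesoderm markers other than HAND1. Without FLI20 and CON10 the full sum had r = 0.619 with ADM, 0.902 with NDRG1 and 0.890 with EPAS1. With the log2 hypoblast sum as a covariate, an alternative added after the data had been seen, the FLI minus control difference was 0.40 for EPAS1, 0.63 for NDRG1 and -0.54 for EGLN3, and 0 members were called (adjusted p of 0.729 or more by limma). Whether levels within hypoblast cells or the number of such cells set these values was not tested.

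**Figure D4:**
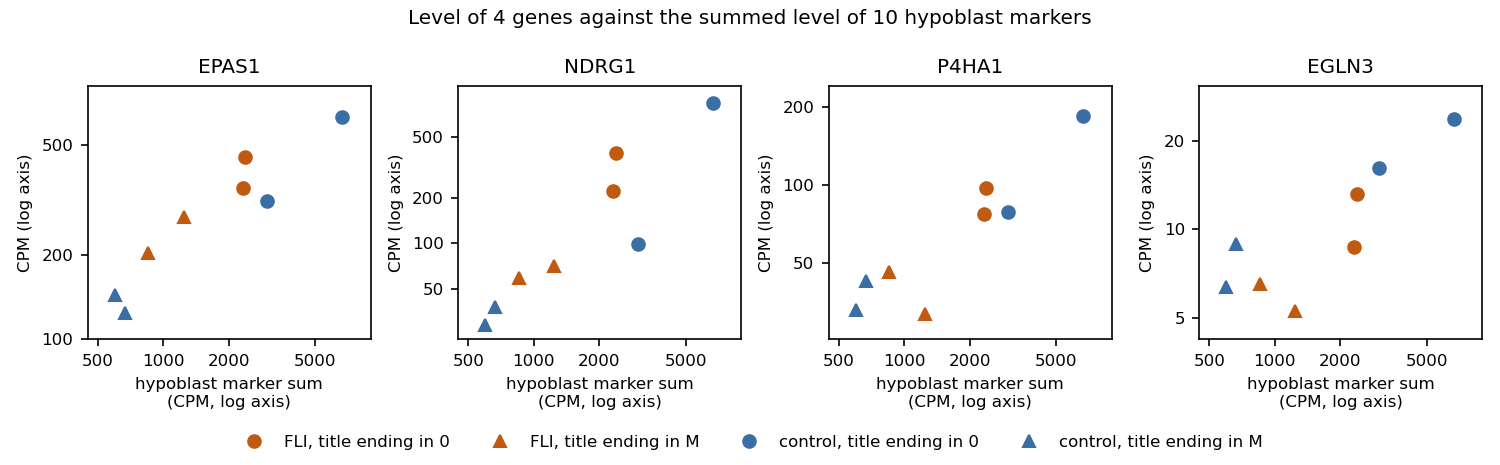
CPM of EPAS1, NDRG1, P4HA1 and EGLN3 in each of the 8 samples against the summed CPM of 10 hypoblast markers, both on log axes; orange is FLI and blue is control, circles are titles ending in 0 and triangles titles ending in M. In each panel CON10 lies at the top right, and the samples with titles ending in M have the 4 lowest marker sums.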

How the data were processed

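RNA of 4 FLI and 4 control samples was sequenced after poly-A enrichment with a stranded kit, per the labels' protocols. The build ARS-UCD1.2 and the tools HISAT2, featureCounts, edgeR and FastQC come from the submitters' processing notes. Tool versions were not given in the sources used here, nor was the use of strand in counting. In the deposited sample columns the signal is a CPM that the authors scaled by TMM factors, as the values show: 100% of values were whole multiples of the worth of 1 read, within 0.001 of a read, so reads could be recovered. The lowest gene total was 112 reads, and counting error is the only error that floors of 3 reads cover. The authors' deposited table gives, per the file headers, the log2 fold change and mean log2 level of each gene. It also gives the authors' likelihood ratio statistic (a score), its p-value and an adjusted p-value.

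The members were chosen by name in the deposited table, and the members and all gene lists were chosen with earlier results of these data known. The test was limma 3.58.1 with trend on log2(CPM + 0.5), FLI minus control, over 11897 genes with at least 1 CPM in at least 4 samples, two-sided, Benjamini-Hochberg adjusted over all of them at a threshold of 0.05. It was tested on simulated data. Alternatives were edgeR 4.0.16 (quasi-likelihood, and likelihood ratio with robust weights) and DESeq2 1.42.0 on recovered reads, pseudocounts of 0.1 and 1, no filter, library size alone, each sample left out, a replicate block, and terms for the last character of the title. The last-character comparison and the marker covariate were added after the data had been seen.

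The numbers 20, 3M and 4M occur in titles of both groups. Within these pairs, deviations from the group mean had correlations of 0.133, 0.351 and 0.359, each over 0.1, so the number was used as a block on 6 samples. Samples of equal number also share the last character of the title, and pairs that share it alone correlated likewise (0.155 to 0.312), so a pairing by number cannot be told apart from that character. Genes named beside the members are those past the threshold in each list, otherwise the 3 of smallest p, with receptors, VHL, ARNT and EGLN2 whatever their value, and the 5 most like VEGFA. HK1, SLC2A3, FAM162A, TEK, TIE1, HAND1, CDX2, TFAP2C, PAG2, IFNT2, KRT8 and AFP were named after their values were seen. Correlations used exact two-sided permutation over 40320 pairings.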

Additional observations from a re-analysis of the deposited data

Results flagged for a closer look

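In groups of 4 samples, 20 groups of member values were checked for a sample that stands apart, of which chance would pick about 1 in 20, and 2 were picked. VEGFA in CON20, at 137.4 CPM, lay apart from the other controls (69.97 to 70.8 CPM), with a gap of 0.988 of the range. NDRG1 in CON10, at 843 CPM, lay apart from the other controls (28.7 to 99.2 CPM), with a gap of 0.913 of the range.

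The FLI minus control difference of BNIP3 was opposite in sign by title ending. For titles ending in 0, BNIP3 was at 12.4 and 15.4 CPM in FLI, against 32.4 and 15.6 CPM in controls. For titles ending in M it was at 23.3 and 27.7 CPM in FLI, against 19.8 and 14.6 CPM in controls. The difference between these differences was -1.25 on the log2 scale (SE 0.51, adjusted p = 0.818 by limma), and 0 of 11897 genes passed for this term, with 723 under 0.05 before adjustment.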

How the results depend on the processing

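No member was called under any of the 20 alternatives for FLI against control (smallest adjusted p 0.695 by limma), and 4 lists (oxygen sensing, other HIF targets, VEGF family, adrenomedullin) also stayed at 0 calls. The relations of VEGFA stayed at 0 calls under the 10 alternatives run for them (2 pseudocounts and each of 8 samples left out). The paralogs were not run under alternatives. Over all genes DESeq2 called 9 and the likelihood ratio test with robust weights 23. Of 200 member values under alternatives 19 changed sign, 8 of them by leaving out a sample, and 5 members (VEGFA, ADM, HIF1A, EGLN3, KDM3A) never did; the cause was not tested. EPAS1 was at -0.16 among titles ending in 0. EGLN1 was at -0.037 with library size alone and at -0.029 among titles ending in 0. BNIP3 was at 0.014 with the likelihood ratio test and 0.57 among titles ending in M, and P4HA1 at 0.0078 and 0.027. NDRG1 was at -0.44 with the quasi-likelihood test and -0.49 with DESeq2. With 1 sample left out the ranges were -0.019 to 0.11 for EGLN1, -0.24 to 0.18 for BNIP3, -0.10 to 1.52 for NDRG1 and -0.57 to 0.26 for P4HA1. With the replicate block on 6 samples, BNIP3 was at 0.27, P4HA1 at 0.12, NDRG1 at 1.29 and EPAS1 at 0.72; the block changed no call. For titles ending in 0 against M, 0 to 1 members were called when a sample was left out (1 without CON10, NDRG1), and VEGFA ranged from -0.0011 to 0.57. The share of all tested genes called in those fits is not given. The r of the hypoblast sum with VEGFA was 0.198 for the full sum and -0.12 without APOA1 and AFP. With BNIP3 the r of the hypoblast sum was -0.46 to 0.35 when a sample was left out. Depth did not limit the members, whose lowest value was 2.58 CPM.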
